A study of Mus musculus with 8 samples.

Results

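The unfolded protein response of the endoplasmic reticulum (ER) was read through 10 genes in mouse hearts that overexpress FASTKD1, an RNA-binding protein of mitochondria. The members were listed by name, with earlier results of these data known: the sensor genes Atf6 and Ern1, the transcription factor gene Xbp1, the folding genes Hspa5, Hsp90b1, Calr, Pdia4, Dnajb9 and Sdf2l1, and the degradation gene Herpud1. All 10 were present among the 13227 genes counted in each of 8 libraries, and all 10 passed the low-count filter. The lowest single count of any member was 90 (Sdf2l1) and the highest 42802 (Hspa5).

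By the labels, each library was made from the heart of a male FVB/N mouse, adult at 3 months of age. The 4 non-transgenic hearts carry the title letters A, B, D and E, and the 4 hearts with the FASTKD1 transgene carry A, B, C and E; values of single hearts are given below in that order of letters. By its title the series is on cardiac-specific overexpression, and the promoter that drives it and the number of founder lines are not given in the sources used here. Letters are taken as separate animals, which the labels do not state outright, so p-values measure the spread between these samples.

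Proteins bound for the membrane or for secretion fold in the ER, and when unfolded chains build up there, sensors in the ER membrane raise the folding and degradation capacity of the organelle. IRE1 (gene Ern1) splices Xbp1 mRNA, ATF6 (gene Atf6) is cut in the Golgi to release a transcription factor, and PERK (gene Eif2ak3) phosphorylates eIF2alpha and so favours translation of Atf4 mRNA. PERK shares that last step with other eIF2alpha kinases that answer to amino acid shortage or mitochondrial stress. In cardiomyocytes the ER is continuous with the sarcoplasmic reticulum, which stores the calcium for contraction. Counts per gene do not show splicing of Xbp1, cleavage of ATF6 or phosphorylation.

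Many targets of ATF6 and XBP1 carry the ER stress element ERSE (searched as CCAAT and CCACG with 9 free bases between) or ERSE-II (ATTGG and CCACG with 1 free base between), and many targets of ATF4 carry the C/EBP-ATF response element, searched as TGATGNAA. Promoters were available for 9 members (all but Atf6), from RefSeq on GRCm38.p6, a reference of another mouse strain. In the 250 bases before the start, on both strands, 4 of these 9 members held at least 1 match. They are shown 5′ to 3′, with the matches in capitals, because Hspa5, Hsp90b1 and Calr hold another element than Herpud1. RefSeq starts can differ from the gene coordinates given further on, which are those of GENCODE.
Hspa5 (chr2:34771840-34772089, plus strand): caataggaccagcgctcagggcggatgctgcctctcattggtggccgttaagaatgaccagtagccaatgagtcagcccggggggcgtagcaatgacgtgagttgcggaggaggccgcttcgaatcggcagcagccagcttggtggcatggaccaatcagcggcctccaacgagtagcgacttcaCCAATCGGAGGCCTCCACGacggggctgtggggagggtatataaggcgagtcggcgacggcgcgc
Hsp90b1 (chr10:86705445-86705694, minus strand): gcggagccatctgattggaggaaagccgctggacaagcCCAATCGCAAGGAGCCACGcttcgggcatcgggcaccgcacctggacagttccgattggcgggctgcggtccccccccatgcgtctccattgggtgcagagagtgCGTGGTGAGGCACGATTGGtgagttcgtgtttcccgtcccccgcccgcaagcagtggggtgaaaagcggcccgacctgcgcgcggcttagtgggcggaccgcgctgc
Calr (chr8:84846932-84847181, minus strand): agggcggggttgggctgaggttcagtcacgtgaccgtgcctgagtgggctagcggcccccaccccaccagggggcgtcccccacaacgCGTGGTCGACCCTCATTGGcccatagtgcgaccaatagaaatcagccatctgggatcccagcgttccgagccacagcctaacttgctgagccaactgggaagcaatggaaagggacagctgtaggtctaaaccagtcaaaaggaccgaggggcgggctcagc
Herpud1 (chr8:94386179-94386428, plus strand): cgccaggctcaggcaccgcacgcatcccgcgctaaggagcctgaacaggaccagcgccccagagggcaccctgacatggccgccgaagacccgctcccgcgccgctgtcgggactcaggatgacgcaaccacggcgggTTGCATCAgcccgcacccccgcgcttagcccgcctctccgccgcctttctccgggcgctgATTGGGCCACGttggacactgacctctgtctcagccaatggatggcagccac
The capitals are ERSE in Hspa5, ERSE on both strands in Hsp90b1, ERSE on the opposite strand in Calr, and in Herpud1 first the response element TGATGNAA on the opposite strand (read there as TTGCATCA) and then ERSE-II. The 2 Herpud1 matches begin 112 and 52 bases before the start and do not overlap. ERSE was held by 3 of 9 members (33.3%) and by 0.113% of all 32851 promoters of this length, ERSE-II by Herpud1 and 0.0304%, and TGATGNAA by Herpud1 and 3.45%. The XBP1 site searched as TGACGTGG was held by 0 of 9 members and 0.563% of all promoters. Xbp1, Ern1, Pdia4, Dnajb9 and Sdf2l1 held none of the 4 motifs in these exact letters in this window. Members and motifs were both chosen as known parts of this response, so these shares are a description and not a test.

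Total counts ran from 45802079 to 50830215 in non-transgenic and from 44584359 to 55769859 in transgenic hearts. Values below are counts scaled to a library size of 1e+06 (CPM), on library sizes scaled by the TMM method. Fastkd1 itself was at 8845 to 11516 CPM in the transgenic hearts and at 26.3 to 33.8 CPM in 3 non-transgenic hearts. The fourth, labelled non-transgenic D, stood at 192 CPM of Fastkd1 and had 0 counts of 4 Y-linked genes, against 10372 to 15914 counts in the other 7 libraries, although it is labelled male. Values without it are given beside most results for the members. Ventricular cardiomyocyte markers were abundant in every library, with a summed level over 8 genes of 66004 to 77378 CPM in non-transgenic and 54448 to 57173 CPM in transgenic hearts. The groups did not overlap on that sum, and 0 of the 8 markers passed the test, 7 of them at an unadjusted edgeR p under 0.05. The summed endothelial markers were 1225 to 1485 CPM in non-transgenic and 1122 to 1162 CPM in transgenic hearts, again without overlap. Of these 8 markers only Fabp4 had no overlap between groups, at 550 ± 141 and 382 ± 19.0 CPM (SD, n = 4 each). The groups overlapped on each of the others, and 0 of the 8 passed the test. Summed fibroblast (1312 to 1830 and 1276 to 1812 CPM), macrophage (292 to 451 and 290 to 422 CPM) and smooth muscle and pericyte markers (1161 to 1725 and 1169 to 1581 CPM) overlapped. The summed level of 7 atrial markers reached 3297 CPM in transgenic heart A and 645 CPM in heart D, with 39.4 to 289 CPM elsewhere. Of 8 plasma and B cell markers, cells known for a strong unfolded protein response, Sdc1 alone was among the genes counted (4.37 to 8.24 CPM). The part of these differences in the results below was not tested. In whole hearts, fewer cells of a type and less RNA per cell cannot be told apart.

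The transgenic hearts had higher mRNA of 2 sensors, Atf6 and Ern1, and of the degradation gene Herpud1, while the main folding genes Hspa5, Hsp90b1, Calr and Pdia4 did not pass the test and had means below those of the non-transgenic hearts. By edgeR's quasi-likelihood test with Benjamini-Hochberg adjustment over all genes tested (threshold 0.05), 3 of the 10 members rose, where 1.01% of all 13226 genes tested did, and 0 fell, where 0.242% did. In 4 members every transgenic heart lay above every non-transgenic heart, as in 4.58% of all genes. For each of these 4 the exact two-sided permutation p was 0.0286, the smallest that 4 hearts against 4 can give, and for the other 6 it was 0.171 to 0.686. The median log2 fold change of the 10 was 0.09, against 0.01 over all genes tested. Without non-transgenic heart D, 2 members rose (Atf6 and Ern1), where 1.04% of all genes did, and the median was 0.17. The plot of single hearts shows the members that separated and those that did not.

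**Figure D1:**
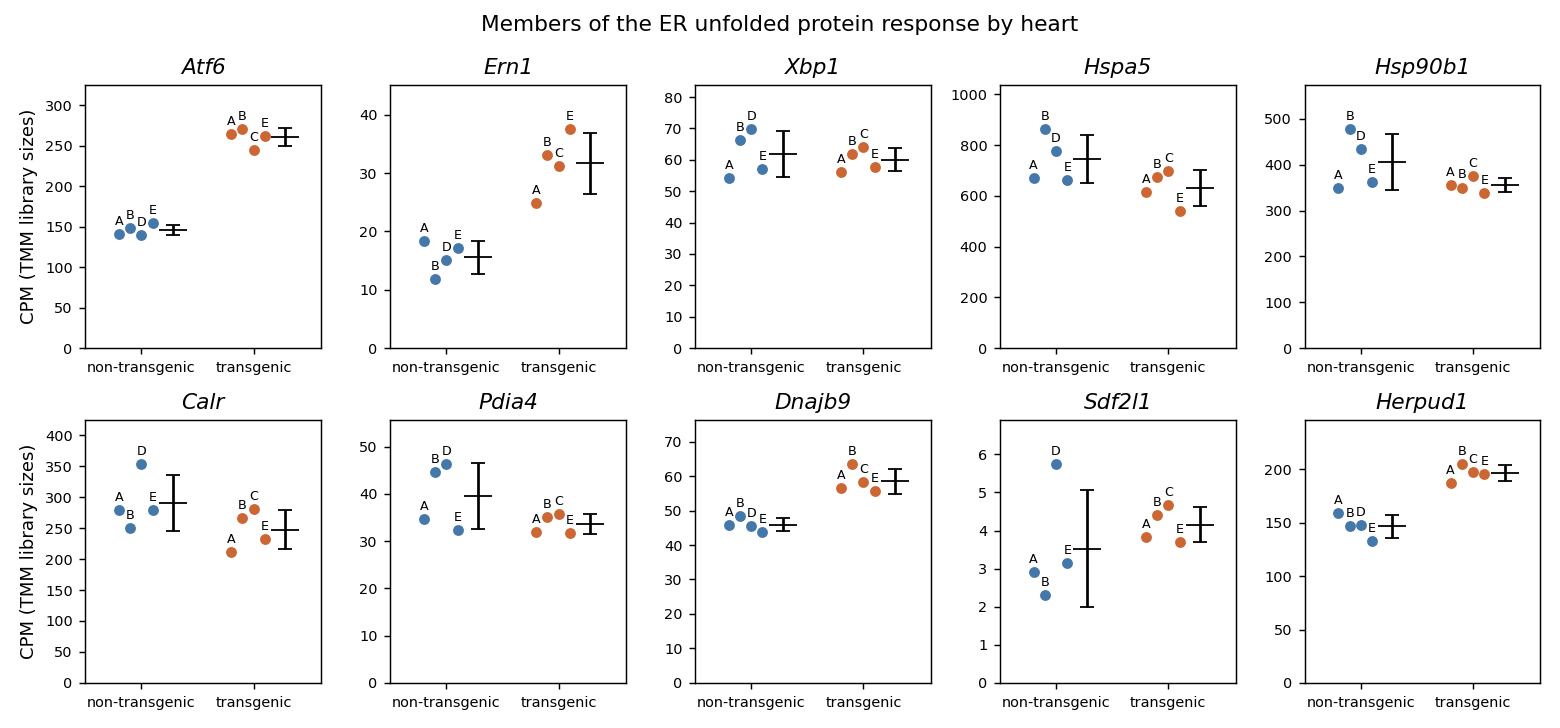
CPM of each member in each heart (points, with the title letter), with the mean and SD of 4 hearts a group; each panel has its own axis from 0. Atf6, Ern1, Dnajb9 and Herpud1 show no overlap between groups, while the other 6 members do.

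Atf6 encodes the ER membrane protein that becomes a transcription factor of chaperone genes (ENSMUSG00000026663; GRCm38 chromosome 1, 170704674 to 170867771, minus strand). It stood at 141, 148, 140.1 and 154 CPM in the non-transgenic hearts and at 264, 271, 245 and 262 CPM in the transgenic hearts. The transgenic hearts were all higher, and the lowest of them was far above the highest non-transgenic heart. The means were 146 ± 6.61 and 260.4 ± 11.2 CPM (SD, n = 4 each), a rise of 1.79-fold (95% interval 1.57 to 2.03; log2 fold change 0.84, SE 0.08, edgeR adjusted p = 0.000386). Heart D was the lowest of the 8 hearts for this gene, and leaving it out gave a log2 fold change of 0.81 (edgeR adjusted p = 0.00172).

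The paralog Atf6b, whose product is cut in the same way, did not pass the test. It had 15.9, 9.68, 18.0 and 15.5 CPM in the non-transgenic hearts and 14.6, 17.7, 18.4 and 17.1 CPM in the transgenic hearts (log2 fold change 0.20, SE 0.17, edgeR adjusted p = 0.770). The groups overlapped, with non-transgenic heart B the lowest of all. The ratio of Atf6 to Atf6b counts within a heart, which does not depend on scaling, was 8.86, 15.2, 7.77 and 9.92 in the non-transgenic hearts and 18.1, 15.3, 13.2 and 15.2 in the transgenic hearts. Transgenic heart C lay below non-transgenic heart B on this ratio, and the difference between groups of 0.61 on the log2 scale gave an exact permutation p of 0.0571 (two-sided, 70 arrangements, 2 ratios tested, adjusted p = 0.0571). A larger rise of Atf6 than of Atf6b was thus not shown by this test. With 70 arrangements the test gives a p under 0.05 only where the groups do not overlap.

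Ern1 encodes IRE1, the kinase and endoribonuclease that splices Xbp1 mRNA (ENSMUSG00000020715; chromosome 11, 106394650 to 106487852, minus strand). It had 18.3, 11.8, 15.1 and 17.1 CPM in the non-transgenic hearts and 24.9, 33.0, 31.1 and 37.6 CPM in the transgenic hearts. The groups did not overlap, and transgenic heart A, the heart with the most atrial transcripts, was the lowest of its group. Ern1 rose from 15.6 ± 2.84 to 31.7 ± 5.29 CPM (SD, n = 4 each), 2.03-fold (95% interval 1.58 to 2.61; log2 fold change 1.02, SE 0.16, edgeR adjusted p = 0.00975). It was the largest log2 fold change among the 10 members in that fit, and the call held without any 1 library (edgeR adjusted p = 0.00448 to 0.0470).

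Xbp1, the mRNA that IRE1 splices, showed no such difference at the gene level. The non-transgenic hearts had 54.3, 66.3, 69.9 and 57.1 CPM and the transgenic hearts had 56.2, 62.0, 64.0 and 57.7 CPM. All 4 transgenic hearts lay within the range of the non-transgenic hearts. The fold was 0.969 with a 95% interval of 0.830 to 1.13 (edgeR adjusted p = 0.922), and its sign turned without heart D (log2 fold change 0.01, edgeR adjusted p = 0.973) and with library totals only (0.02, edgeR adjusted p = 0.969).

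The third sensor gene, Eif2ak3, which encodes PERK and was singled out after its values were seen, had 7.45 to 9.20 CPM in non-transgenic and 8.76 to 9.15 CPM in transgenic hearts (fold 1.08, 95% interval 0.926 to 1.26, edgeR adjusted p = 0.779). Of 17 tested sensor and transcription factor genes of the response, which include Atf6, Ern1 and Xbp1, Atf6 and Ern1 rose, 0 fell and 15 did not pass. Mbtps1, the site-1 protease that cuts ATF6, had the next smallest p, at 49.2 ± 8.96 and 60.3 ± 1.42 CPM with no overlap between groups (SD, n = 4 each; edgeR adjusted p = 0.444). The median of this list was 0.13 on the log2 scale and 0.15 without heart D.

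Among the folding genes, Hspa5 encodes BiP, the HSP70 chaperone of the ER lumen and the standard readout of ER stress (ENSMUSG00000026864; chromosome 2, 34771970 to 34777547, plus strand). Its level was 672, 864, 775 and 664 CPM in the non-transgenic hearts and 614, 673, 698 and 540.4 CPM in the transgenic hearts. The groups overlapped, and the hearts with most Hspa5 were non-transgenic B and D. The fold was 0.849 with a 95% interval of 0.704 to 1.02 (edgeR adjusted p = 0.543), so a rise of the size seen for Atf6 lay outside the interval. Without heart D the log2 fold change was -0.23 (edgeR adjusted p = 0.466).

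Hsp90b1 encodes GRP94, the HSP90 chaperone of the lumen (ENSMUSG00000020048; chromosome 10, 86690209 to 86705509, minus strand). It had 349, 479, 434 and 363 CPM in the non-transgenic hearts and 357, 350.4, 376 and 339 CPM in the transgenic hearts. The pattern resembled that of Hspa5, with non-transgenic hearts B and D on top and the other 6 hearts close together (fold 0.876, 95% interval 0.734 to 1.05, edgeR adjusted p = 0.629). Without heart D the log2 fold change was -0.17 in place of -0.19. Exons of the antisense gene 1810014B01Rik overlap it, at a mean of 4.63 CPM, and whether the counting used strand is not given in the sources used here.

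Calr encodes calreticulin, a lectin chaperone that also binds calcium in the lumen (ENSMUSG00000003814; chromosome 8, 84841850 to 84846934, minus strand). It had 279, 250.1, 354 and 279 CPM in the non-transgenic hearts and 211, 266, 281 and 233 CPM in the transgenic hearts. Heart D alone stood above the rest, and the other 7 hearts overlapped (fold 0.852, 95% interval 0.694 to 1.04, edgeR adjusted p = 0.607). The log2 fold change went from -0.23 to -0.13 without heart D.

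Pdia4 encodes the disulfide isomerase ERp72 (ENSMUSG00000025823; chromosome 6, 47796141 to 47813430, minus strand). It had 34.7, 44.6, 46.4 and 32.4 CPM in the non-transgenic hearts and 32.0, 35.1, 35.8 and 31.8 CPM in the transgenic hearts. Non-transgenic hearts B and D were again the highest, and hearts A and E lay within the transgenic range (fold 0.852, 95% interval 0.701 to 1.04, edgeR adjusted p = 0.586). Without heart D the log2 fold change was -0.15 in place of -0.23.

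Sdf2l1, a partner of BiP and its J proteins and the least abundant member by CPM (ENSMUSG00000022769; chromosome 16, 17130138 to 17132383, minus strand), had 2.90, 2.30, 5.76 and 3.14 CPM in the non-transgenic hearts and 3.84, 4.42, 4.67 and 3.70 CPM in the transgenic hearts. Heart D held the highest value of all 8, and the other 3 non-transgenic hearts lay below every transgenic heart. With heart D the fold was 1.17 (95% interval 0.790 to 1.74, edgeR adjusted p = 0.827), and without it the log2 fold change went from 0.23 to 0.57 (edgeR adjusted p = 0.155). The call was the same in both sets, and this gene is the member whose fold rested most on heart D among those that did not pass.

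Dnajb9 encodes ERdj4, a J protein of BiP that also restrains IRE1 (ENSMUSG00000014905; chromosome 12, 44205559 to 44210326, minus strand). It had 45.9, 48.5, 45.6 and 43.7 CPM in the non-transgenic hearts and 56.5, 63.6, 58.2 and 55.6 CPM in the transgenic hearts. The groups did not overlap, unlike those of the other 5 folding genes among the members. The fold of 1.27 (95% interval 1.13 to 1.44) did not pass in edgeR (adjusted p = 0.0771), and it passed with DESeq2 (adjusted p = 0.00236), with limma-voom sample weights (adjusted p = 0.00631), with 1 surrogate variable (edgeR adjusted p = 0.0287) and without non-transgenic heart B (edgeR adjusted p = 0.0345). Without heart D it did not pass (edgeR adjusted p = 0.127).

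Heart D held the highest of the 8 values for Xbp1, Calr, Pdia4 and Sdf2l1, 4 of the 10 members, as for 14.6% of all genes tested. Within groups, Hspa5, Hsp90b1, Pdia4 and Xbp1 went up and down together, with Pearson correlations of log2 CPM, group means taken off, of 0.79 to 0.94 over the 8 hearts, and Calr and Sdf2l1 at 0.88. Without heart D the correlations were 0.85 to 0.91 for the 4 genes and 0.82 for Calr and Sdf2l1, over 7 hearts. Ern1 went the other way, at -0.78 to -0.41 with the 4 genes over the 8 hearts and -0.80 to -0.49 without heart D. Dnajb9 was at 0.43 to 0.72 with the 4 genes, and at 0.48 to 0.75 without heart D. These are descriptions over libraries that share scaling and depth, with pairs picked after their values were seen. By the same measure over all genes tested, the genes most like Hspa5 were Nostrin, Ccdc88a, Mettl17, Gpd2 and Ackr4 (0.95 to 0.98), and those most like Atf6 were Cep63, Btg1, Gm43032, Nr3c2 and 2010001A14Rik (0.85 to 0.92). Without heart D these 10 correlations were 0.95 to 0.98 and 0.83 to 0.91. None of the 10 is a member or on a pathway list used here. They were picked as the highest over all genes tested in few hearts, and the correlations that unrelated genes reach were not estimated.

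Of 21 tested chaperone and co-chaperone genes of the ER lumen, 0 rose and 0 fell (edgeR), and 1 had an unadjusted p under 0.05 (Dnajb9), where 10.7% of all genes did. Their median log2 fold change was -0.03, and -0.04 without heart D. Their summed level was 2569 to 3011 CPM in non-transgenic and 2413 to 2776 CPM in transgenic hearts. Canx, the membrane-bound counterpart of calreticulin, was at 540.2 ± 71.0 and 493 ± 16.2 CPM (SD, n = 4 each; fold 0.912, edgeR adjusted p = 0.741). Uggt1, the folding sensor that returns glycoproteins to calreticulin and calnexin, was at 50.3 ± 9.02 and 59.1 ± 1.61 CPM (edgeR adjusted p = 0.570).

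Chaperones outside the ER included genes that passed. Of 10 tested cytosolic heat shock genes, Hspa1a, Hspa1b and Hsp90aa1 rose and 0 fell (median 0.50), and of 10 mitochondrial chaperone and protease genes Lonp1 and Hspa9 rose and 0 fell (median 0.18). Without heart D, 1 gene of each list passed. Hspa1a and Hspa1b were at low levels, with means of 0.475 and 2.20 CPM in non-transgenic and 3.09 and 7.98 CPM in transgenic hearts. The more abundant cytosolic genes Hspa8 (509 and 543 CPM, edgeR adjusted p = 0.846) and Hsp90ab1 (1422 and 1586 CPM, edgeR adjusted p = 0.634) did not pass. Hsph1 (68.6 and 109 CPM, edgeR adjusted p = 0.0817) and Hspb1 (61.9 and 89.9 CPM, 0.0923) did not pass either, but without overlap between groups. All 10 cytosolic genes had positive log2 fold changes. In 5 of the 10 the transgenic hearts were all above the non-transgenic ones, against 4.58% of all genes, and in 0 all below, against 2.8%. Hsp90aa1 passed only without non-transgenic heart B or transgenic heart A among the 8 sets that leave out 1 library (edgeR adjusted p up to 0.106 in the others), and Hspa1b did not pass without non-transgenic heart A, B or D or transgenic heart C (up to 0.104). Hspa9 encodes the mitochondrial member of the same HSP70 family as Hspa5, and it rose from 933 ± 79.0 to 1331 ± 76.1 CPM (SD, n = 4 each; log2 fold change 0.51, SE 0.10, edgeR adjusted p = 0.0294). The ratio of Hspa5 to Hspa9 counts within a heart was 0.743, 0.834, 0.913 and 0.703 in the non-transgenic hearts and 0.504, 0.487, 0.509 and 0.399 in the transgenic hearts. All 4 transgenic hearts were lower, with a difference of -0.75 on the log2 scale and an exact permutation p of 0.0286, the smallest that 70 arrangements can give (adjusted over the 2 ratios, 0.0571). Hspa9 lost its own call in 6 of the 8 sets that leave out 1 library, all but those without non-transgenic heart B or transgenic heart A (edgeR adjusted p = 0.104, 0.0510 and 0.0948 without non-transgenic hearts A, D and E, and 0.164, 0.142 and 0.121 without transgenic hearts B, C and E).

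Among 23 tested disulfide and proline isomerase genes of the ER, only Ero1l, the oxidase that recharges disulfide isomerases, rose, and 0 fell. It went from 14.0 ± 1.38 to 19.9 ± 1.003 CPM (SD, n = 4 each; 1.42-fold, 95% interval 1.22 to 1.66, edgeR adjusted p = 0.0383), with no overlap between groups. The call was lost without non-transgenic heart A (edgeR adjusted p = 0.117) or E (0.152), without transgenic heart B (0.212), C (0.183) or E (0.121) and with library totals only (0.094). Qsox1, another sulfhydryl oxidase, and the prolyl isomerase Fkbp10 had the next smallest p, at 0.36 and -0.42 on the log2 scale (edgeR adjusted p of 0.251 and 0.333). The median of the list was -0.04.

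Herpud1 encodes an ER membrane protein of the degradation machinery and is the member whose promoter held both ERSE-II and TGATGNAA (ENSMUSG00000031770; chromosome 8, 94386438 to 94395377, plus strand). It had 159, 147, 148 and 133 CPM in the non-transgenic hearts and 188, 206, 197 and 195 CPM in the transgenic hearts. The groups did not overlap, and transgenic heart A was the lowest of its group. Herpud1 rose from 147 ± 10.7 to 196 ± 7.32 CPM (SD, n = 4 each), 1.34-fold (95% interval 1.17 to 1.53; log2 fold change 0.42, SE 0.09), with an edgeR adjusted p of 0.0489, close to the threshold. The call was lost in 7 of the 8 sets that leave out 1 library, all but that without non-transgenic heart B (edgeR adjusted p = 0.0622 without non-transgenic heart A, 0.0747 without D, 0.152 without E, and 0.0703, 0.236, 0.195 and 0.171 without transgenic hearts A, B, C and E), while over these 8 sets the log2 fold change stayed between 0.36 and 0.46. It was also lost with DESeq2-type size factors (0.0508) and upper quartile scaling (0.0515).

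The paralog Herpud2 was at 28.4 ± 3.51 and 32.6 ± 1.36 CPM (SD, n = 4 each; edgeR adjusted p = 0.555), with overlap between groups. Of 29 tested genes of ER-associated degradation, Herpud1 rose, 0 fell and 28 did not pass, and the median was 0.11. In 6 of the 29 the transgenic hearts were all above the non-transgenic ones, against 4.58% of all genes, and in 0 all below, against 2.8%. Sel1l, the scaffold of the ubiquitin ligase complex that Herpud1 joins, was at 79.0 ± 8.86 and 105 ± 4.70 CPM (1.32-fold, 95% interval 1.14 to 1.54, edgeR adjusted p = 0.103), and Ubxn4, which brings the segregase VCP to the ER membrane, at 51.4 ± 3.55 and 64.5 ± 4.09 CPM (1.25-fold, edgeR adjusted p = 0.143). Without heart D, 0 of the 29 passed.

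Genes that bring new chains into the ER were near the background. Of 25 tested translocon, signal recognition and signal peptidase genes, 0 rose and 0 fell (edgeR), 1 had an unadjusted p under 0.05 (Sec61a1), and the median was 0.00. Sec61a1, the pore subunit, was at 33.4 ± 4.62 and 41.3 ± 3.08 CPM (SD, n = 4 each; edgeR adjusted p = 0.337). Of 7 transcripts known from other cells to be cut by IRE1, 0 rose and 0 fell (edgeR), and 0 had an unadjusted p under 0.05. Bloc1s1, the best known of them, had a log2 fold change of -0.30 (SE 0.15, edgeR adjusted p = 0.518), and Scara3 and Pdgfrb had 0.72 and 0.14 (edgeR adjusted p of 0.552 and 0.879).

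The list of the PERK arm, which is shared with the integrated stress response, differed in its counts from the lists above. Of 18 tested genes, 9 rose and 0 fell (edgeR), with a median of 1.01, and 1.02 without heart D. The 9 were Asns, Trib3, Chac1, Atf5, Sesn2, Nupr1, Atf4, Cebpg and Ddit3, with log2 fold changes from 0.92 (Ddit3) to 4.68 (Asns). Atf4, the transcription factor of this arm, stood at 65.9 ± 4.57 and 161 ± 23.8 CPM (SD, n = 4 each; edgeR adjusted p = 0.000265). TGATGNAA was held by 4 of 17 promoters of this list (Chac1, Atf3, Asns and Nupr1), against 1 of 9 promoters of the members. No test compared the lists with each other, and the rise of this list in these libraries was known before it was described here.

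**Figure D2:**
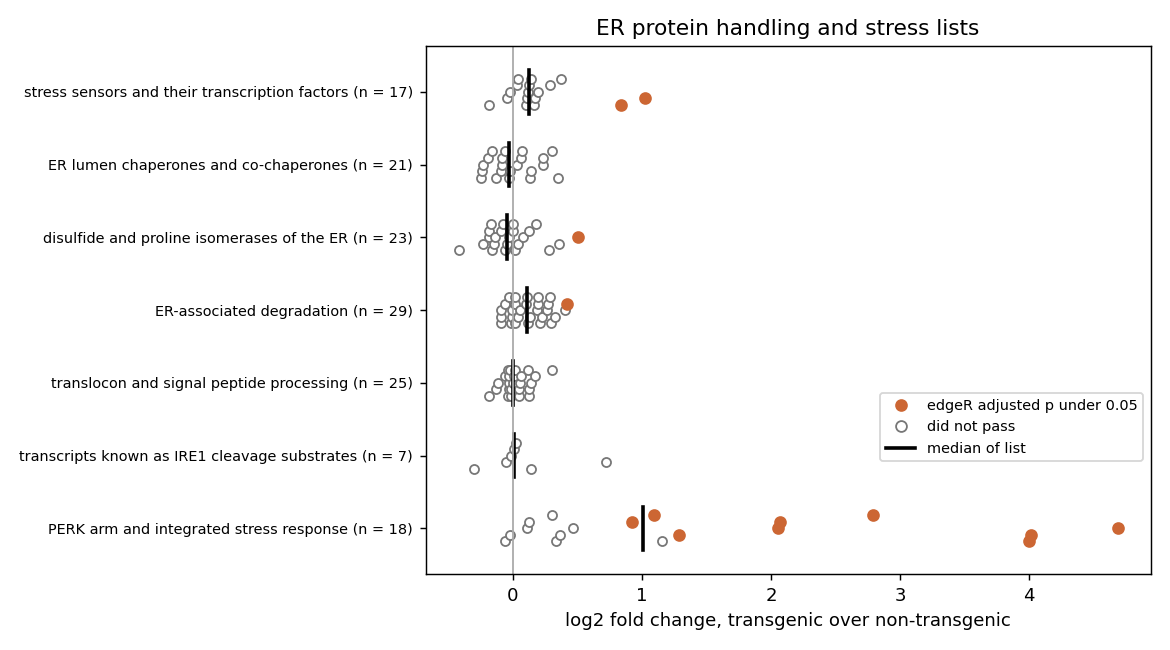
Log2 fold change of every tested gene (circles) in 7 lists of ER protein handling and stress genes, filled where the edgeR adjusted p was under 0.05, with the median of each list as a black bar; the vertical spread within a row carries no meaning. The sensor, folding, degradation and translocon lists have medians from -0.04 to 0.13 and the PERK arm list 1.01.

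Calcium store genes of the sarcoplasmic reticulum, the specialised ER of cardiomyocytes, included 1 gene that fell. Of 17 tested, Hrc, a calcium-binding protein of its lumen, went from 1768 ± 158 to 1269.7 ± 47.7 CPM (SD, n = 4 each; 0.718-fold, edgeR adjusted p = 0.0387), and 0 rose. Pln, the inhibitor of the calcium pump, and Atp2a2, the pump itself, differed by -0.57 and -0.32 on the log2 scale (edgeR adjusted p of 0.118 and 0.262), with no overlap between groups. Pln and Ryr2 are on both this list and that of the 8 ventricular markers. The other 6 markers summed to 62629 to 73536 CPM in non-transgenic and 51213 to 54193 CPM in transgenic hearts, without overlap, and their part in these differences was not tested. The call of Hrc was lost without non-transgenic heart A (edgeR adjusted p = 0.104) or E (0.0764) and without transgenic heart A (0.0897), B (0.176), C (0.124) or E (0.121).

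Levels of different members were set side by side per length, as CPM per kb of the union of annotated exons. Annotated exons that are not used in heart also count in that length, so close ranks depend on the annotation. In non-transgenic hearts Hspa5 was the highest at 176 ± 22.4 CPM per kb (SD, n = 4), followed by Calr at 101 ± 15.5 and Hsp90b1 at 101 ± 15.2, which did not differ beyond their spread, and by Herpud1 at 62.9 ± 4.58. Xbp1, Dnajb9, Pdia4 and Atf6 lay together at 19.1 ± 2.28, 18.0 ± 0.776, 16.5 ± 2.94 and 15.8 ± 0.716 CPM per kb. Sdf2l1 at 3.18 ± 1.38 and Ern1 at 1.91 ± 0.348 CPM per kb were the lowest and overlapped in their spread. In transgenic hearts Hspa5 stayed the highest at 149 ± 16.5 CPM per kb, Hsp90b1, Calr and Herpud1 stood close at 88.2 ± 3.86, 85.9 ± 11.0 and 84.2 ± 3.14, and Atf6 at 28.2 ± 1.21 lay above Dnajb9 at 22.9 ± 1.41 and Xbp1 at 18.5 ± 1.11. Ern1 at 3.87 ± 0.647 and Sdf2l1 at 3.75 ± 0.416 did not differ beyond their spread. Without heart D, the non-transgenic level per kb was 93.5 ± 5.77 for Calr, below Hsp90b1 at 98.4 ± 17.7 but within its spread, and 2.51 ± 0.389 for Sdf2l1 (SD, n = 3).

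**Figure D3:**
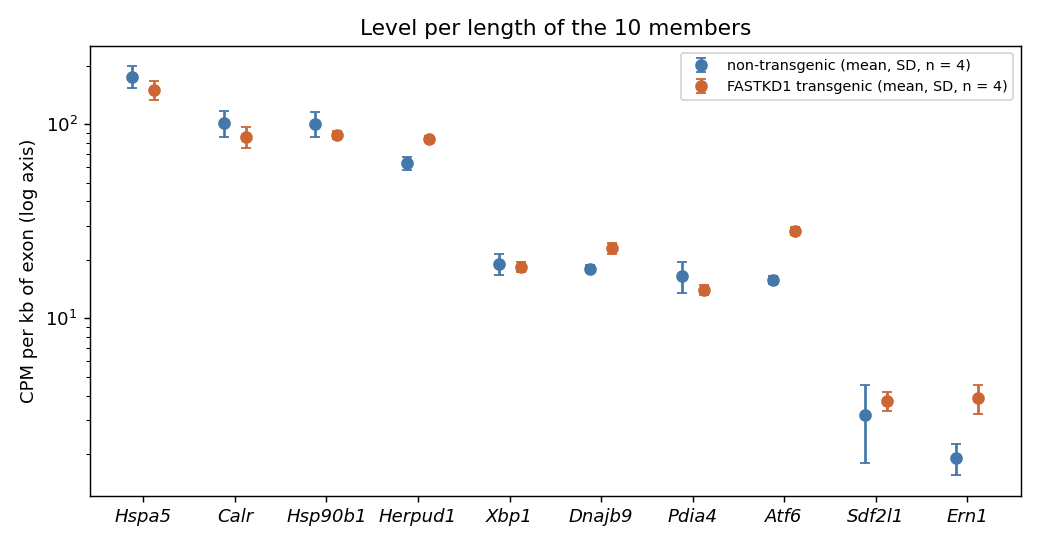
Mean level of each member in CPM per kb of exon (log axis) with SD over 4 hearts, non-transgenic beside transgenic, ordered by the non-transgenic level. Hspa5 is highest in both groups (176 and 149 CPM per kb), and Atf6 moves from 15.8 to 28.2 CPM per kb.

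The calls of the members differed in how far they rested on the setting. Atf6 passed in each of the 19 alternatives run, with log2 fold changes of 0.80 to 0.91, and Ern1 in 18 of 19 (all but the fit with title letters as a block), with log2 fold changes of 0.91 to 1.12. Herpud1 passed in 8 and Dnajb9 in 4 of 19. The 4 members Atf6, Ern1, Herpud1 and Dnajb9 all rose with 1 surrogate variable (where 1.64% of all genes rose), DESeq2 (1.89%), limma-voom sample weights (2.77%) and without non-transgenic heart B (1.27%). Only Atf6 and Ern1 did so with DESeq2-type size factors (0.99%), upper quartile scaling (0.983%), without both non-transgenic D and transgenic A (1.29%) and in the 7 sets without 1 other library (0.832%, 1.04% and 0.869% without non-transgenic hearts A, D and E, and 1.11%, 0.779%, 0.847% and 0.839% without transgenic hearts A, B, C and E). With library totals only (1.04%), limma-voom (1.02%), the stricter low-count filter (1.17%) or none (1.01%), the 3 members were those reported. Hspa5, Hsp90b1, Calr and Pdia4 had negative log2 fold changes in all 19 and passed in 0.

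**Figure D4:**
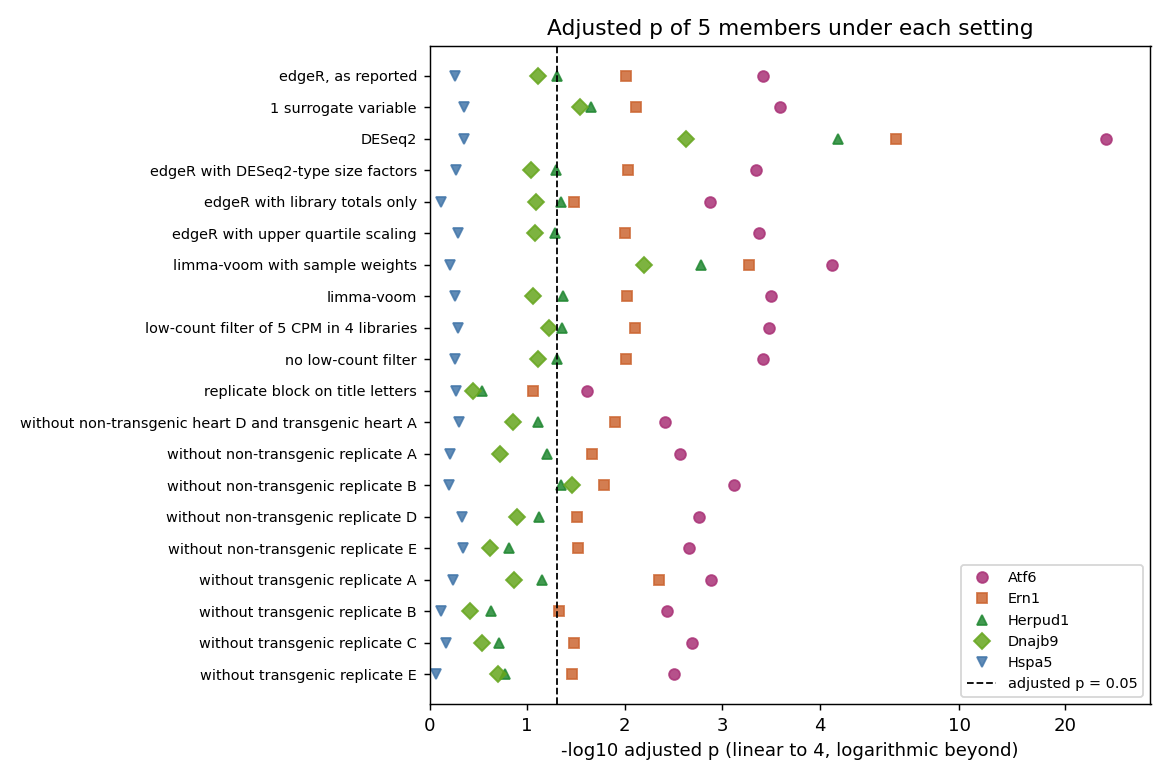
Adjusted p of 5 members on a -log10 scale under the edgeR fit as reported and under 19 alternative settings, with the threshold of 0.05 as a dashed line. Atf6 lies right of the line in every row and Hspa5 left of it, while Herpud1 and Dnajb9 cross it.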

How the data were processed

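RNA of 8 whole hearts was extracted with Trizol and made into TruSeq libraries, per the labels' protocols. The deposited files hold raw whole-number counts for each gene; trimming with cutadapt 1.15, TopHat2 and the build GRCm38 (mm10) are named in the submitters' processing notes, while the read counter, annotation and strandedness are not given in the sources used here. All tables list the same 13227 genes, and 7 identifiers had no entry in the annotation used for symbols and exon lengths (GENCODE M21). Counts were scaled by TMM and tested with edgeR 4.0.16 (R 4.3.3; quasi-likelihood F test, filterByExpr, 13226 genes tested, no covariate, Benjamini-Hochberg over all genes tested). Fold intervals are 95% intervals from the fit's SE. Ratios within a heart used counts plus 2 on the log2 scale. No 2 libraries of a group agreed within sampling noise (chi-square per degree of freedom at least 19.7). Members and pathway lists were chosen with earlier results of these data known. Named genes are the members, their paralogs, and in each list those past the threshold or with the smallest p up to 3. Eif2ak3, Hspa8, Hsp90ab1, Hsph1, Hspb1 and Fabp4 were named after their values were seen. Correlations and levels per length without heart D, and the marker sum without shared genes, were added after seeing the data. Alternatives used DESeq2 1.42.0, limma 3.58.1 (voom) and sva 3.50.0, other scalings, other filters, left-out libraries and the title letters as a block. The edgeR fit was also run on simulated counts, with dispersions that edgeR estimated from these data. That run checks the code and not the calls of the members.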

Additional observations from a re-analysis of the deposited data

How the results depend on the processing

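Atf6 rose in all 19 alternatives (adjusted p up to 0.0241, edgeR with the block). Over all genes, 133 rose and 32 fell as reported, against 217 and 93 with 1 surrogate variable, 249 and 159 with DESeq2, and 366 and 236 with limma-voom sample weights. With both hearts that stand apart left out (non-transgenic D, transgenic A), 106 fell. Leaving out 1 library gave 103 to 168 that rose and 9 to 72 that fell (10, 50 and 72 without non-transgenic hearts A, B and D, and 9 and 14 without transgenic hearts B and C). Of the members, 2 to 4 rose when 1 library was left out and 0 fell in every alternative.

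Xbp1 had log2 fold changes of 0.024 with library totals only, 0.046 with limma-voom sample weights, 0.049 without both hearts and -0.10 to 0.010 when 1 library was left out (0.010 without non-transgenic heart D), against -0.04 as reported. Pdgfrb had -0.033 to 0.29 when 1 library was left out (-0.033 without non-transgenic heart B). The cause was not tested. The log2 ratio of Atf6 to Atf6b differed by 0.48 to 0.80 and that of Hspa5 to Hspa9 by -0.81 to -0.67 when 1 library was left out. No scaling moved the median of all genes by over 0.08.

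Title letters A, B and E occur in both groups, but same-letter hearts did not all deviate together (correlations of 0.30, -0.08 and 0.36), and not every heart correlated best with its own letter. With the letters as a replicate block, in edgeR, 103 genes rose, 21 fell and 1 member (Atf6) rose, with adjusted p = 0.0869 for Ern1 and 0.287 for Herpud1. The log2 fold changes in that fit were 1.02 for Ern1 and 0.43 for Herpud1, against 1.02 and 0.42 as reported. Non-transgenic heart D and transgenic heart C have letters found in only 1 group, so with the block they add nothing to the group difference. The block fit thus compares fewer hearts than the fit as reported. Outside the members, the calls of Ero1l (adjusted p = 0.186), Hrc (0.205), Hspa9 (0.238), Hsp90aa1 (0.153) and Lonp1 (0.102) were also lost in the block fit. The lowest count of Sdf2l1, 90, makes it the member with the least counting precision.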
